A study of Mus musculus with 56 samples.

Results

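The genes described here are 41 cell cycle and proliferation genes in mouse liver, and they were chosen by their symbols, with no measured value in the rule. All 41 were found among the 21935 genes of the deposited count table, and all 41 were among the 14105 genes that passed the filter on low counts. They comprise 2 proliferation markers, 7 cyclin and cyclin-dependent kinase genes, 2 transcription factors, 7 DNA replication genes, 4 genes of deoxynucleotide synthesis, 8 mitotic kinase, checkpoint and chromosomal passenger genes, 2 genes that act with the anaphase-promoting complex, 8 spindle, kinetochore and cytokinesis genes, and the CDK inhibitor gene Cdkn1a.

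RNA-seq was performed on terminal livers of 56 male C57BL/6J mice in 7 groups of 8, each library from a separate mouse. The Chow vehicle group was fed chow and received vehicle. The other 6 groups had obesity and metabolic dysfunction-associated steatohepatitis (MASH) induced by the AMLN diet, a diet rich in fat, fructose and cholesterol, for 36 weeks (DIO-MASH), had been selected by liver biopsy, stayed on that diet, and were dosed subcutaneously once daily for 8 weeks. DIO-MASH mice received vehicle, zalfermin at 0.05 mg/kg (low) or 0.2 mg/kg (high), semaglutide at 3 µg/kg (low) or 120 µg/kg (high), or zalfermin 0.05 mg/kg together with semaglutide 3 µg/kg (the combination). Zalfermin is a long-acting FGF21 analogue. Semaglutide activates the GLP-1 receptor. The sources name no transgene or deletion. The methods give the combination as both low doses whereas the series description names both high doses, and the low doses are used here. The liver label was borne out by the hepatocyte markers, of which none was at 0 reads throughout any group. Each library held 5228187 to 20885786 reads on genes (median 12206788), so 1 read stood for 0.0476 to 0.217 CPM (the read count scaled by the normalized library size), and the low values below rest on few reads.

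Hepatocytes of an adult liver are mostly quiescent and re-enter the cell cycle after injury or loss of tissue, while immune, stellate and ductular cells also divide in a diseased liver. On entry into the cycle, cyclin D with its kinases releases E2F factors from the retinoblastoma proteins, and E2F factors turn on the genes of the MCM helicase and of nucleotide synthesis for S phase. Later, B-MYB and FOXM1 act with the MuvB core at genes of G2 and mitosis, many of which carry a cell cycle homology region (CHR) and CCAAT boxes bound by NF-Y, and the same core represses these genes in quiescent cells as part of the DREAM complex. Since whole liver was sequenced, fewer dividing cells and less RNA of these genes per cell cannot be told apart in any value below.

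To show how the regulatory letters are laid out in members of different roles, the 200 bases before the gene start are given for a proliferation marker, the mitotic kinase, a replication helicase subunit, an activator of the anaphase-promoting complex and a spindle motor. They were taken from RefSeq on GRCm38.p6, on the strand of the gene, at chr7:135716380-135716579 (minus strand) for Mki67, chr10:69352913-69353112 (minus) for Cdk1, chr1:128359706-128359905 (minus) for Mcm6, chr4:118437344-118437543 (minus) for Cdc20 and chr19:37376182-37376381 (plus) for Kif11. Capitals mark every match on either strand to the CHR letters TTTGAA, to the NF-Y box CCAAT and to an E2F core, searched with the letters TTCGCGC or the letters TTGGCGC.
Mki67: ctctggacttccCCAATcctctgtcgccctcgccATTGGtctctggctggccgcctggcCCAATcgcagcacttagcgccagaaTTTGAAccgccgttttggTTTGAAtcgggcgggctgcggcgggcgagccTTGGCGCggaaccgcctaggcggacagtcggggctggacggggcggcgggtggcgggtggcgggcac
Cdk1: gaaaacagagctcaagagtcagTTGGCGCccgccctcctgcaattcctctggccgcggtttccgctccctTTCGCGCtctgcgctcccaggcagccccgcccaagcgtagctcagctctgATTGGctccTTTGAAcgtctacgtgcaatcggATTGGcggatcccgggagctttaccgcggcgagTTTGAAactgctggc
Mcm6: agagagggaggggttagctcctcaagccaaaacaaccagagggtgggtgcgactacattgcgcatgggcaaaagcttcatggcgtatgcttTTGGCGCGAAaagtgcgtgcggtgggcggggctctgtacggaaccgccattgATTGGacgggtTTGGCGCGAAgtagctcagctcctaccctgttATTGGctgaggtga
Cdc20: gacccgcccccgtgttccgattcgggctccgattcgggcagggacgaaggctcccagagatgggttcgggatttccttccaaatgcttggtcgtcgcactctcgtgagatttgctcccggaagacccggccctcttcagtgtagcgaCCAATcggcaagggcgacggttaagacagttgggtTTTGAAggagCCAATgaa
Kif11: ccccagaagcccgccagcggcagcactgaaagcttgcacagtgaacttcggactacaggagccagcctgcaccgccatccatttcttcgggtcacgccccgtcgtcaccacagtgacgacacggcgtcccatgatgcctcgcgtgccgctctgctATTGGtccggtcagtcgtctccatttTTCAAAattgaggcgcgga
Mki67 and Cdk1 held all 3 kinds of letters, Cdc20 and Kif11 held the CHR letters with CCAAT and no E2F core, and Mcm6 held E2F cores and CCAAT and no CHR letters. The 2 ways of writing the E2F core can overlap each other in a run such as TTGGCGCGAA, and the second can overlap a box on the other strand.

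RefSeq windows from 250 bases before to 50 bases after the start were matched for 33 members, which had 36 windows. Ccna2, Ccnd1, Ccne2, Aurkb, Kif20a, Tpx2, Mcm4 and Foxm1 had no matched window. The CHR letters were in 47.2% of the member windows, against 17.9% of all 32851 windows and 16% of those of protein-coding genes. CCAAT was in 77.8%, against 37.4% and 38.2%, and an E2F core was in 19.4%, against 3.89% and 5.0%. By role, the CHR letters were in 5 of 7 windows of the mitotic kinase and checkpoint genes, in 5 of 7 of the spindle genes, in both of the anaphase-promoting complex genes and in 1 of 7 of the replication genes. The E2F core showed the opposite layout, in 4 of 7 replication windows (Mcm3, Mcm5, Mcm6 and Mcm7) and in none of those mitotic and spindle windows. All 16 members with CHR letters also had CCAAT, and 2 of them (Mki67 and Cdk1) had an E2F core too. None of the letters was in the windows of Ccne1, E2f1, Tyms, Tk1, Birc5, Nusap1 and Cdkn1a. The E2f1 window (chr2:154569377-154569676, minus strand) lies wholly inside the gene as GENCODE places it, with its start at 154569892. The windows of Cdca8 and Cdca3, both windows of Mcm7 and the Cdkn1a window that begins at 29093519 also lie wholly inside their genes. The bases before the GENCODE starts of E2f1, Cdca8, Cdca3 and Mcm7 were not searched, so nothing is said of their promoters there. The matches of Cdca8, Cdca3 and Mcm7 in the counts by role therefore lie downstream of those starts. A match is a description of the letters, not a binding site.

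**Figure D1:**
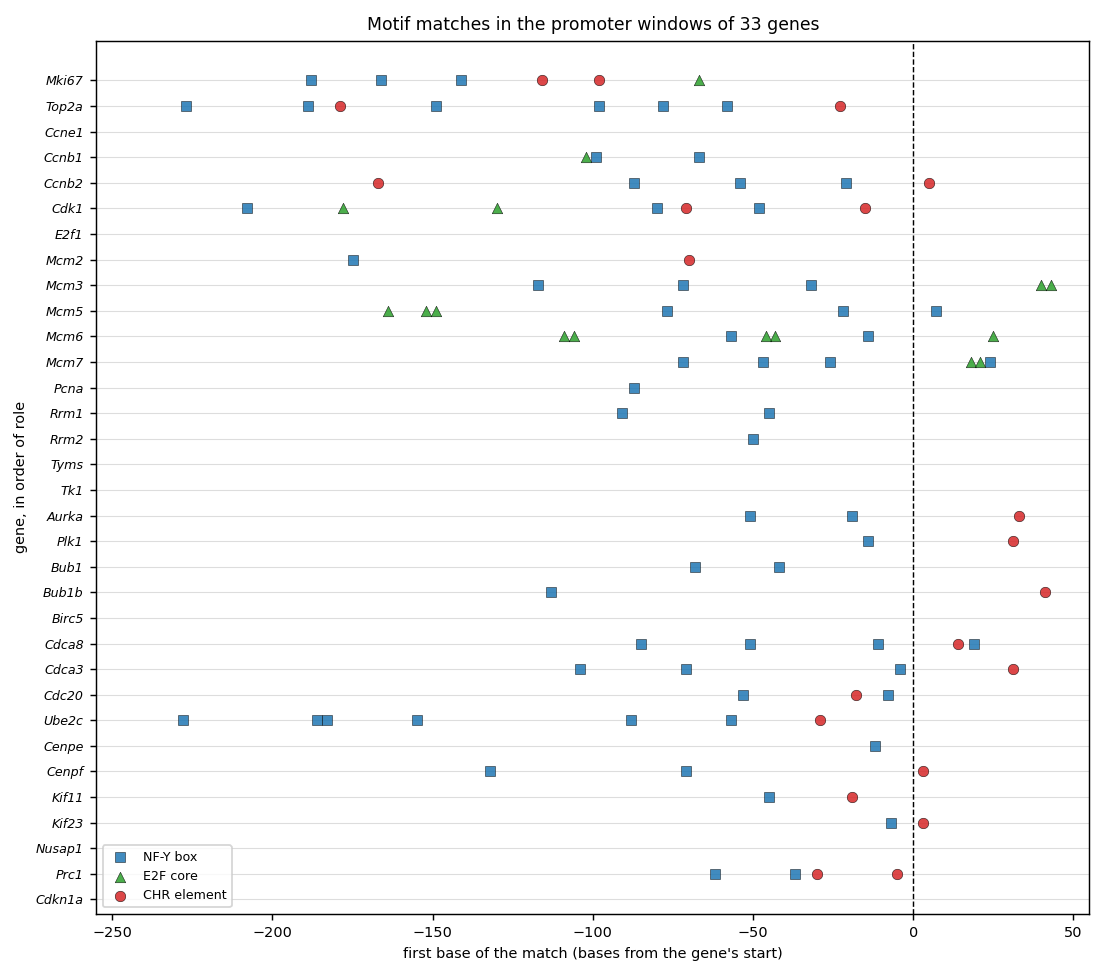
Positions of the CHR letters, the NF-Y box (CCAAT) and the E2F core in the promoter windows of the members, grouped by role, with 1 row per gene. The x axis gives the distance from the RefSeq start of the window in bases. The E2F core lies in replication, cyclin and marker genes, and the CHR letters lie mainly in mitotic, spindle and anaphase-promoting complex genes.

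The first comparison asked how these genes differ between steatohepatitic and healthy liver. In DIO-MASH vehicle livers 36 of 41 members were higher than in chow (edgeR's quasi-likelihood test with Benjamini-Hochberg adjustment over all genes, adjusted p under 0.05) and 1 was lower, where 28.9% of all 14105 genes were higher and 26.5% were lower. The median log2 fold change of the 41 was 2.16, against 0.01 over all genes, and the changes ran from -1.22 to 3.83. In 23 members the 8 DIO-MASH and the 8 chow values did not overlap, against 16% of all genes. As the mean of log2 CPM over the 41, chow livers ran from 0.243 to 1.38 (median 0.441) and DIO-MASH vehicle livers from 1.97 to 2.56 (median 2.30).

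The next comparisons asked which dosing moved them. Each uses the same 8 DIO-MASH vehicle livers, so the counts are not independent of each other. The combination lowered 33 members and raised 1 (background 10.9% lower and 10% higher), high-dose zalfermin lowered 34 and raised 1 (8.68% and 8.54%), and high-dose semaglutide lowered 19 and raised 0 (1.0% lower). The median log2 fold changes over the members were -1.33, -1.24 and -1.05, with medians over all genes of -0.03, -0.02 and -0.01. Values did not overlap with those of the vehicle group in 13 members for the combination (3.98% of all genes), in 17 for high-dose zalfermin (4.8%) and in 7 for high-dose semaglutide (0.34%). The count for high-dose semaglutide rested on single mice, since it was 3 without its mouse 3, which had the lowest values of the group in 25 of 41 members, and 28 without its mouse 7, which had the highest in 23.

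Neither low dose changed a member in edgeR's test. For low-dose zalfermin 0 of 41 passed, against 0.468% of all genes, with 22 members and 11.3% of all genes at an unadjusted p under 0.05. For low-dose semaglutide 0 of 41 passed, against 0.0% of all genes, with 25 members and 8.66% of all genes at an unadjusted p under 0.05. DESeq2 also called 0 members in both. The fitted log2 fold changes were below 0 in 39 and 40 of the 41, with medians of -0.58 and -0.72. Group medians of the mean log2 CPM stood at 1.77 with the low dose of zalfermin and 1.78 with that of semaglutide, between the vehicle group and the 1.14, 1.23 and 1.46 of the combination and the high doses of zalfermin and semaglutide.

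**Figure D2:**
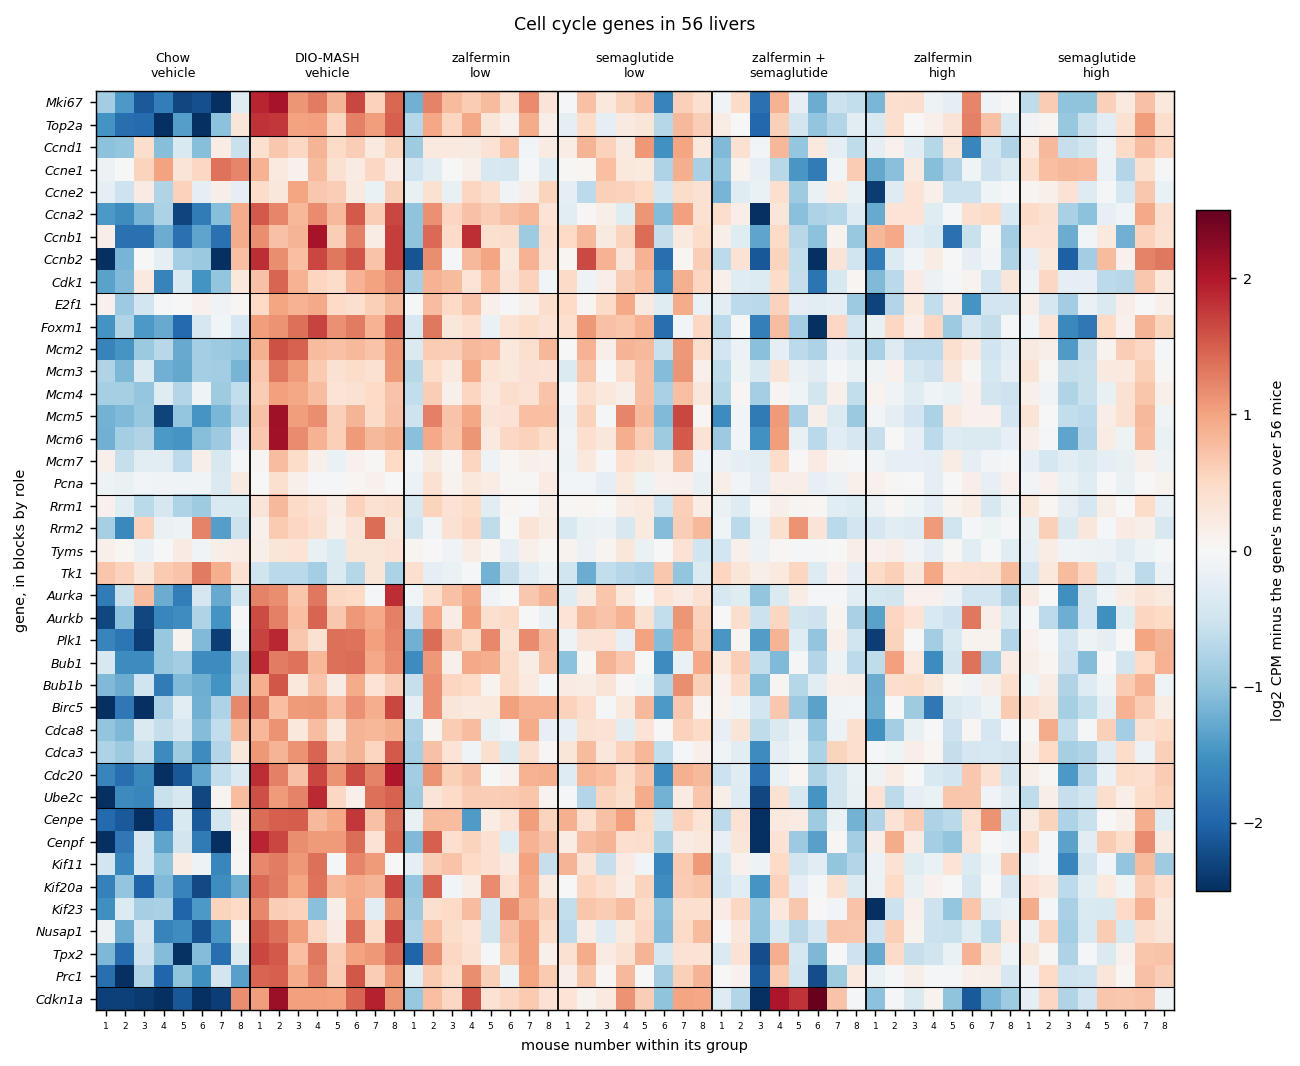
Heat map of log2 CPM of the 41 members (rows, by role) in the 56 livers (columns, by group, 8 mice each). The DIO-MASH vehicle block is the highest for most rows and the chow block the lowest, while Tk1 runs the other way and Pcna and Tyms vary little.

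**Figure D3:**
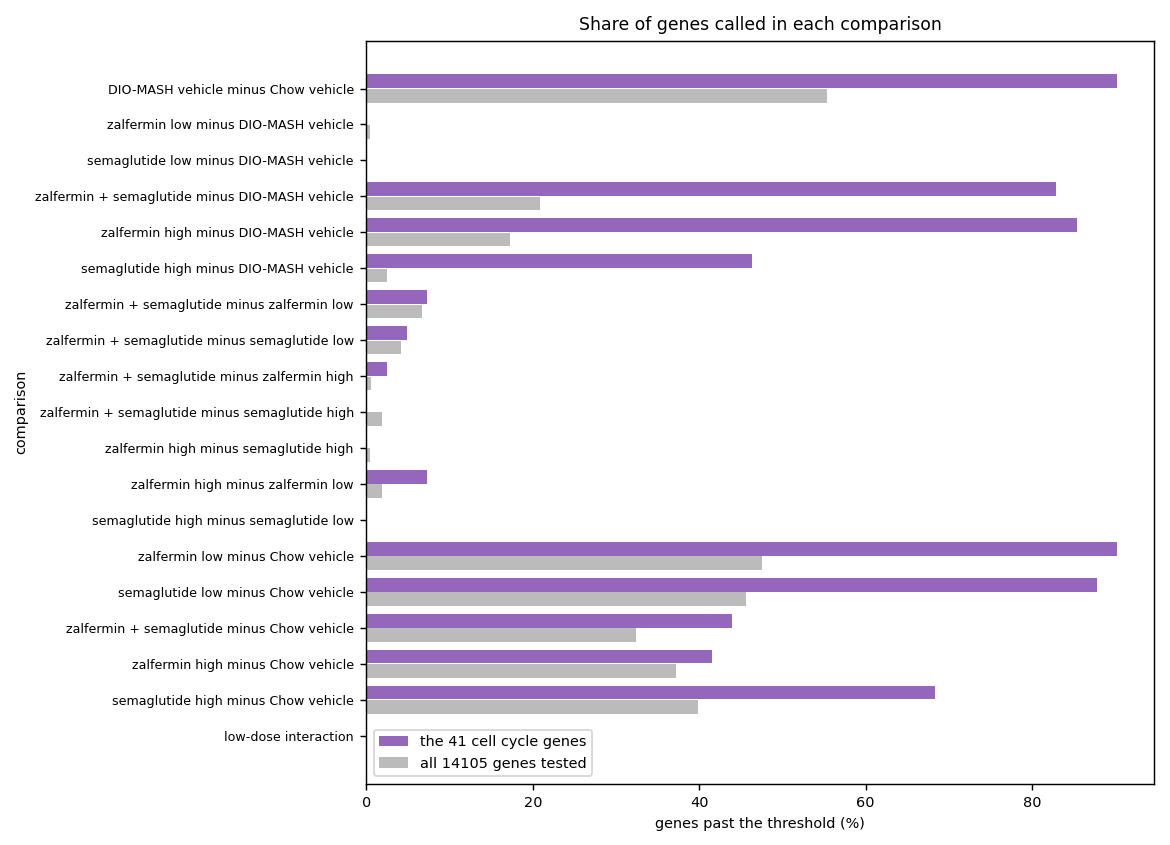
Percent of the 41 members and of all 14105 tested genes that were called higher or lower at an adjusted p under 0.05 in each comparison. Calls in both directions are counted together. Against DIO-MASH vehicle, the members' share stands far above that of all genes under the combination and both high doses. Both shares are at or near 0 for the low doses against vehicle.

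Both proliferation markers were highest in the DIO-MASH vehicle group. Mki67 (GRCm38 chr7:135689784-135716361, minus strand), whose protein Ki-67 coats mitotic chromosomes and marks cells in cycle, ran at 0.592 to 4.18 (median 1.26) CPM in chow and 7.76 to 22.2 (median 13.7) CPM in DIO-MASH vehicle livers (log2 fold change 3.05 ± 0.38 (SE), adjusted p = 1.96e-09). The groups did not overlap. Mki67 ran at 2.17 to 12.4 (median 8.59) CPM under low-dose zalfermin and 1.52 to 8.73 (median 7.29) under low-dose semaglutide. It ran at 1.31 to 9.61 (median 3.93) CPM under the combination, 2.26 to 12.3 (median 5.01) under high-dose zalfermin and 2.48 to 8.65 (median 6.18) under high-dose semaglutide. The changes from vehicle were -1.63 ± 0.34 (adjusted p = 0.000323) for the combination, -1.26 ± 0.33 (adjusted p = 0.00490) for high-dose zalfermin and -1.35 ± 0.33 (adjusted p = 0.0189) for high-dose semaglutide on the log2 scale. All 3 groups overlapped with the vehicle group, and all 3 stayed above chow, by 1.43 ± 0.38 (adjusted p = 0.00321), 1.79 ± 0.38 (adjusted p = 0.000231) and 1.71 ± 0.38 (adjusted p = 0.000318).

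Top2a, the topoisomerase that untangles replicated DNA, ran at 0.360 to 4.68 (median 1.07) CPM in chow and 5.50 to 13.7 (median 8.62) CPM in DIO-MASH vehicle livers, without overlap (log2 fold change 2.75 ± 0.35 (SE), adjusted p = 5.11e-09). Under the combination it ran at 0.848 to 5.77 (median 2.87) CPM (log2 fold change -1.61 ± 0.32 (SE), adjusted p = 0.000181). It also fell under the high doses, to 2.85 to 9.23 (median 4.43) CPM with zalfermin (log2 fold change -0.97 ± 0.31 (SE), adjusted p = 0.0232) and 1.86 to 7.99 (median 3.73) CPM with semaglutide (log2 fold change -1.20 ± 0.31 (SE), adjusted p = 0.0251). Top2a and Mki67 were among the 3 members with the smallest p under low-dose semaglutide, where Top2a ran at 2.23 to 6.75 (median 4.55) CPM (log2 fold change -1.10 ± 0.31 (SE), adjusted p = 0.270) and Mki67 changed by -1.12 ± 0.33 (adjusted p = 0.271). Neither passed the test at that dose.

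Among the cyclins and Cdk1, 6 of 7 were higher in DIO-MASH vehicle than in chow livers. Cdk1, the kinase that drives entry into mitosis, ran at 0.451 to 2.21 (median 0.790) CPM in chow and 2.54 to 5.23 (median 3.44) CPM in DIO-MASH vehicle livers, without overlap (log2 fold change 1.77 ± 0.31 (SE), adjusted p = 3.88e-06). It ran at 0.391 to 2.54 (median 1.41) CPM under the combination (log2 fold change -1.22 ± 0.29 (SE), adjusted p = 0.00185) and 0.754 to 2.28 (median 1.68) CPM under high-dose zalfermin (log2 fold change -1.14 ± 0.29 (SE), adjusted p = 0.00390), where all 8 mice were below all 8 vehicle mice. Under high-dose semaglutide Cdk1 ran at 1.05 to 2.97 (median 1.60) CPM and did not pass the test (log2 fold change -0.94 ± 0.28 (SE), adjusted p = 0.0573).

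Ccnb1, the cyclin B1 partner of Cdk1, was scarcely read in chow livers, with 15 reads over all 8 mice and none in 4 of them. It ran at 0 to 0.985 (median 0.0384) CPM in chow and 0.517 to 2.35 (median 1.05) CPM in DIO-MASH vehicle livers (log2 fold change 2.51 ± 0.58 (SE), adjusted p = 0.000280), and the groups overlapped through chow mouse 8 alone. Ccnb1 fell under the combination to 0.0771 to 0.682 (median 0.266) CPM (log2 fold change -1.78 ± 0.52 (SE), adjusted p = 0.0109) and under high-dose zalfermin to 0 to 0.992 (median 0.315) CPM (log2 fold change -1.52 ± 0.52 (SE), adjusted p = 0.0364). Its values under high-dose semaglutide were 0.0886 to 0.726 (median 0.573) CPM (log2 fold change -1.31 ± 0.50 (SE), adjusted p = 0.152). The other mitotic and S phase cyclins, Ccnb2 (cyclin B2) and Ccna2 (cyclin A2), rose with the diet by 2.33 ± 0.52 (adjusted p = 0.000171) and 2.24 ± 0.40 (adjusted p = 5.12e-06) and fell without overlap under the combination (-1.88 ± 0.49 and -1.63 ± 0.37) and high-dose zalfermin (-1.89 ± 0.50 and -1.23 ± 0.37).

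The G1 cyclins differed from these. Ccnd1 (cyclin D1, which links growth signals to the cycle) had the highest level per length of all members, with a median of 13.4 CPM per kb of exon in chow and 32.6 in DIO-MASH vehicle livers. Ccnd1 shares 1100 exon bases (23.36% of its exon bases) with LTO1 on the other strand. In CPM it ran at 50.3 to 144 (median 62.96) in chow and 125 to 191 (median 154) in DIO-MASH vehicle livers. Under dosing its CPM was 49.05 to 189 (median 94.96) under the combination, 34.02 to 129 (median 81.8) under high-dose zalfermin and 71.2 to 186 (median 136) under high-dose semaglutide. Ccnd1 rose with the diet (log2 fold change 0.997 ± 0.27 (SE), adjusted p = 0.00158) and fell under high-dose zalfermin (log2 fold change -0.91 ± 0.27 (SE), adjusted p = 0.0133), with overlap between the groups each time. The combination (-0.60 ± 0.27, adjusted p = 0.0992) and high-dose semaglutide (-0.25 ± 0.27, adjusted p = 0.654) did not pass.

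Ccne1 (cyclin E1, which carries cells into S phase with CDK2) was the only member lowered by the combination that the diet had not raised. It ran at 1.54 to 4.61 (median 2.57) CPM in chow and 1.85 to 3.27 (median 2.16) CPM in DIO-MASH vehicle livers (log2 fold change -0.26 ± 0.27 (SE), adjusted p = 0.414). It fell to 0.391 to 2.75 (median 1.23) CPM under the combination (log2 fold change -0.89 ± 0.28 (SE), adjusted p = 0.0181) and 0.603 to 2.01 (median 1.05) CPM under high-dose zalfermin (log2 fold change -1.03 ± 0.29 (SE), adjusted p = 0.00817). Both groups were also below chow, by -1.16 ± 0.28 (adjusted p = 0.00136) and -1.29 ± 0.29 (adjusted p = 0.000376). Low-dose zalfermin livers, at 1.15 to 1.89 (median 1.36) CPM, were below chow as well (-0.97 ± 0.28, adjusted p = 0.00343), whereas the semaglutide groups ran at 0.903 to 3.37 (median 1.92) (low) and 0.959 to 3.10 (median 2.35) CPM (high) and did not pass against chow or vehicle. High-dose zalfermin against high-dose semaglutide did not pass for Ccne1 (-0.96 ± 0.29, adjusted p = 0.118). Ccne2 (cyclin E2) rose with the diet (0.64 ± 0.25, adjusted p = 0.0286) and fell under the combination (-0.75 ± 0.25, adjusted p = 0.0260) and high-dose zalfermin (-0.81 ± 0.25, adjusted p = 0.0202).

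Both transcription factors were higher in DIO-MASH vehicle livers without overlap with chow. E2f1, an activator of S phase genes, ran at 1.88 to 4 (median 3.62) CPM in chow and 4.88 to 7.40 (median 6.09) CPM in DIO-MASH vehicle livers (log2 fold change 0.86 ± 0.22 (SE), adjusted p = 0.00105). It fell to 1.89 to 5.58 (median 3.02) CPM under the combination (log2 fold change -0.997 ± 0.22 (SE), adjusted p = 0.000842) and 0.603 to 4.44 (median 2.48) CPM under high-dose zalfermin (log2 fold change -1.24 ± 0.23 (SE), adjusted p = 6.04e-05). High-dose semaglutide livers were at 1.95 to 4.12 (median 3.47) CPM (log2 fold change -0.87 ± 0.22 (SE), adjusted p = 0.0215). Both high-dose groups lay wholly below the vehicle group. Under the low doses E2f1 ran at 3.53 to 6.41 (median 4.56) CPM with zalfermin and 2.93 to 7.23 (median 4.75) CPM with semaglutide. E2f1 was 1 of 3 members that differed between the zalfermin doses.

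Foxm1, an activator of G2 and mitotic genes, was at 0.104 to 0.828 (median 0.361) CPM in chow and 1.75 to 3.18 (median 2.26) CPM in DIO-MASH vehicle livers (log2 fold change 2.44 ± 0.43 (SE), adjusted p = 3.99e-06). It was at 0 to 1.61 (median 0.538) CPM under the combination (log2 fold change -1.70 ± 0.39 (SE), adjusted p = 0.00123) and 0.386 to 1.32 (median 0.804) CPM under high-dose zalfermin (log2 fold change -1.45 ± 0.39 (SE), adjusted p = 0.00654), both below every vehicle mouse. Under high-dose semaglutide all 8 mice, at 0.135 to 1.72 (median 1.06) CPM, were also below the vehicle mice, although the test was not passed (log2 fold change -1.27 ± 0.38 (SE), adjusted p = 0.0537).

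Of the replication genes, the 6 MCM subunits, which form the helicase loaded at origins, were all higher in DIO-MASH vehicle livers, and Pcna, the sliding clamp of the polymerases, was not. Mcm2 ran at 1.74 to 3.60 (median 2.999) CPM in chow and 9.76 to 18.2 (median 10.8) CPM in DIO-MASH vehicle livers (log2 fold change 2.18 ± 0.23 (SE), adjusted p = 3.15e-11). It fell to 2.78 to 5.33 (median 4.34) CPM under the combination (log2 fold change -1.54 ± 0.22 (SE), adjusted p = 5.21e-07) and 3.32 to 7.92 (median 4.44) CPM under high-dose zalfermin (log2 fold change -1.33 ± 0.22 (SE), adjusted p = 8.78e-06). High-dose semaglutide livers were at 2.13 to 9.20 (median 6.46) CPM (log2 fold change -1.01 ± 0.21 (SE), adjusted p = 0.00715). None of these 3 groups overlapped with the vehicle group, and Mcm2 stayed above chow in each, by 0.64 ± 0.24 (adjusted p = 0.0323), 0.84 ± 0.24 (adjusted p = 0.00397) and 1.17 ± 0.23 (adjusted p = 6.86e-05). Under the low doses Mcm2 ran at 4.55 to 10.7 (median 9.22) CPM with zalfermin and 3.99 to 12.8 (median 9.30) CPM with semaglutide, overlapping with the vehicle values in both.

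Mcm4 ran at 3.26 to 5.99 (median 3.73) CPM in chow, 8.30 to 13.5 (median 10.5) CPM in DIO-MASH vehicle livers and 3.55 to 7.13 (median 5.34) CPM under the combination, with a rise of 1.33 ± 0.19 (adjusted p = 5.39e-08) and a change under the combination of -0.97 ± 0.18 (adjusted p = 0.000105), neither with overlap. Mcm6 ran at 3.85 to 9.48 (median 5.51) CPM in chow, 16.8 to 47.7 (median 20.6) CPM in DIO-MASH vehicle livers and 6.92 to 11.1 (median 8.71) CPM under high-dose zalfermin, again without overlap (2.08 ± 0.29, adjusted p = 3.71e-08 for the diet and -1.43 ± 0.28 (adjusted p = 0.000158) for the dosing). Mcm5 ran at 1.17 to 3.81 (median 2.89) CPM in chow, 9.05 to 28.6 (median 11.4) CPM in DIO-MASH vehicle, 1.77 to 13.6 (median 4.33) CPM under the combination and 4.05 to 11.5 (median 6.87) CPM under high-dose semaglutide. Mcm5 rose with the diet (2.31 ± 0.33, adjusted p = 6.69e-08) and fell under the combination (-1.33 ± 0.31, adjusted p = 0.00120) and high-dose zalfermin (-1.24 ± 0.31, adjusted p = 0.00295), while high-dose semaglutide did not pass (-0.96 ± 0.30, adjusted p = 0.0699). Mcm3 rose by 1.77 ± 0.21 and fell under the combination and both high doses (-0.96 ± 0.20, -0.93 ± 0.20 and -0.71 ± 0.20). Mcm7 rose least of the subunits (0.49 ± 0.13, adjusted p = 0.000915), and it fell under both high doses but did not pass under the combination (-0.25 ± 0.12, adjusted p = 0.144). Mcm7 hosts microRNA genes and shares exon bases with Ap4m1 on the other strand.

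Pcna was nearly level across the study, although low-dose zalfermin livers were above chow in edgeR's test. That call was lost in an edgeR fit of these groups alone (log2 fold change 0.19, adjusted p = 0.0793). Pcna ran at 17.6 to 26.2 (median 21.04) CPM in chow and 21.7 to 29.7 (median 22.98) in DIO-MASH vehicle livers. Dosed livers were at 18.9 to 25.3 (median 23.2) CPM under the combination, 19.1 to 25.1 (median 22.9) under high-dose zalfermin and 18.1 to 24.2 (median 21.98) under high-dose semaglutide. Its difference between DIO-MASH vehicle and chow was 0.17 ± 0.08 (adjusted p = 0.0740), with a 95% confidence interval 0.01 to 0.33, so a rise as large as that of Mcm2 lay outside the interval. Pcna has near copies in the genome, and reads of a copy and of the gene may not be told apart. Per length it was the second most abundant member in chow livers, at a median of 8.77 CPM per kb against 13.4 for Ccnd1.

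Of the 4 genes of deoxynucleotide synthesis, 1 rose with the diet, 1 fell and 2 did not pass. Rrm1, the large subunit of ribonucleotide reductase, rose with the diet without overlap (0.90 ± 0.13, adjusted p = 1.62e-07) and fell under the combination (-0.55 ± 0.13, adjusted p = 0.00165) and high-dose zalfermin (-0.54 ± 0.13, adjusted p = 0.00234). Rrm2, the small subunit, ran at 2.48 to 18.98 (median 6.22) CPM in chow, 8.69 to 21.2 (median 10.2) in DIO-MASH vehicle, 4.88 to 17.5 (median 7.16) under the combination and 5.60 to 16.8 (median 6.87) under high-dose zalfermin. It did not pass in any comparison with the vehicle group, and its difference from chow was 0.63 ± 0.29 (adjusted p = 0.0614). Tyms, the thymidylate synthase, did not pass either (0.12 ± 0.10, adjusted p = 0.340 for the diet). Pcna, Rrm2 and Tyms were the 3 members that passed in none of the 6 comparisons with DIO-MASH vehicle.

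Tk1, the thymidine kinase that salvages thymidine in S phase, ran opposite to the rest. It was at 13.9 to 28.1 (median 18.2) CPM in chow and 6.24 to 14.1 (median 7.07) CPM in DIO-MASH vehicle livers (log2 fold change -1.22 ± 0.21 (SE), adjusted p = 2.10e-06), the groups meeting through vehicle mouse 7 alone. It rose to 8.99 to 16.6 (median 13.01) CPM under the combination (log2 fold change 0.69 ± 0.21 (SE), adjusted p = 0.0127) and 13.8 to 22.4 (median 15.4) CPM under high-dose zalfermin (log2 fold change 1.03 ± 0.21 (SE), adjusted p = 0.000235). It was at 7.20 to 19.7 (median 10.2) CPM under high-dose semaglutide (log2 fold change 0.54 ± 0.21 (SE), adjusted p = 0.152), and it was below chow there (-0.67 ± 0.20, adjusted p = 0.00658) and under the combination (-0.53 ± 0.20, adjusted p = 0.0389). With plain library sizes in place of TMM, the rise under the combination did not pass (0.46, adjusted p = 0.0684), nor did the differences from chow under the combination (-0.29, adjusted p = 0.239) and high-dose semaglutide (-0.37, adjusted p = 0.105).

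Tk1 (chr11:117815526-117826092, minus strand) lies head to head with Afmid, the kynurenine formamidase gene, and this neighbour was looked up after the values of Tk1 were seen. The starts are 168 bases apart, the genes overlap by 169 bases on opposite strands, and 83 exon bases are shared. Afmid ran at 45.01 to 78.8 (median 56.4) CPM in chow and 11.2 to 21.6 (median 15.7) CPM in DIO-MASH vehicle livers, without overlap. It ran at 21.3 to 55.2 (median 38.5) CPM under the combination and 26.99 to 55.2 (median 38.1) CPM under high-dose zalfermin. It changed in the direction of Tk1, by -1.85 ± 0.19 (adjusted p = 1.53e-11) with the diet, 1.20 ± 0.19 (adjusted p = 4.31e-06) under the combination, 1.26 ± 0.19 (adjusted p = 2.20e-06) under high-dose zalfermin and 0.81 ± 0.19 (adjusted p = 0.0145) under high-dose semaglutide. Whether strand was used in counting is not given in the sources used here, and the part of the shared bases in the values of Tk1 was not tested.

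All 8 mitotic kinase, checkpoint and passenger genes were higher in DIO-MASH vehicle than in chow livers. Aurkb, the kinase of the chromosomal passenger complex, ran at 0 to 0.615 (median 0.111) CPM in chow (15 reads over 8 mice) and 1.10 to 2.31 (median 1.62) CPM in DIO-MASH vehicle livers (log2 fold change 3.02 ± 0.42 (SE), adjusted p = 4.29e-08). It fell to 0.290 to 0.992 (median 0.526) CPM under the combination (log2 fold change -1.39 ± 0.35 (SE), adjusted p = 0.00348) and 0.109 to 0.991 (median 0.442) CPM under high-dose semaglutide (log2 fold change -1.60 ± 0.35 (SE), adjusted p = 0.0101), both without overlap. Under high-dose zalfermin it fell to 0.151 to 1.82 (median 0.592) CPM, with overlap (log2 fold change -1.14 ± 0.35 (SE), adjusted p = 0.0194). The checkpoint kinase Bub1 showed the largest fitted rise with the diet, 3.83 ± 0.62 (adjusted p = 9.00e-07), but it rested on 5 reads over the 8 chow mice, 4 of which had none, so its size is uncertain. Bub1b (BUBR1) rose by 2.20 ± 0.30 (adjusted p = 2.30e-08), and was the member of this role that high-dose zalfermin did not lower (-0.66 ± 0.26, adjusted p = 0.0754).

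Cdca3, which promotes destruction of the mitotic brake WEE1, had the smallest p of all members under low-dose zalfermin. It ran at 0.451 to 2.09 (median 0.878) CPM in chow, 2.52 to 5.18 (median 3.48) in DIO-MASH vehicle, 0.882 to 2.92 (median 1.96) under low-dose zalfermin and 1.06 to 3.15 (median 2.12) under low-dose semaglutide. Low-dose zalfermin did not pass (-0.95 ± 0.25, adjusted p = 0.0627). The combination and the high doses lowered it, by -1.28 ± 0.26 (adjusted p = 0.000279), -1.33 ± 0.26 (adjusted p = 0.000200) for zalfermin and -1.05 ± 0.25 (adjusted p = 0.0179) for semaglutide. The remaining genes of this role, Aurka and Plk1 (mitotic kinases), Birc5 (survivin) and Cdca8 (borealin), rose with the diet by 1.94 ± 0.30, 2.83 ± 0.47, 1.98 ± 0.41 and 1.34 ± 0.29, and all 4 fell under the combination and high-dose zalfermin. High-dose semaglutide lowered Aurka (-1.16 ± 0.27, adjusted p = 0.0152) among these 4.

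Cdc20, the activator that turns the anaphase-promoting complex on its mitotic targets, had the largest fall under the combination of all members. It ran at 0 to 0.738 (median 0.211) CPM in chow and 1.77 to 4.49 (median 3.03) CPM in DIO-MASH vehicle livers (log2 fold change 3.44 ± 0.40 (SE), adjusted p = 3.02e-10). It fell to 0.154 to 1.03 (median 0.723) CPM under the combination (log2 fold change -2.16 ± 0.34 (SE), adjusted p = 5.16e-06) and 0.676 to 1.70 (median 0.955) CPM under high-dose zalfermin (log2 fold change -1.59 ± 0.33 (SE), adjusted p = 0.000378). High-dose semaglutide livers were at 0.266 to 1.64 (median 1.07) CPM (log2 fold change -1.56 ± 0.32 (SE), adjusted p = 0.00715). None of these groups overlapped with the vehicle group. Under the low doses Cdc20 ran at 0.475 to 2.36 (median 1.69) CPM with zalfermin (log2 fold change -1.01 ± 0.31 (SE), adjusted p = 0.128) and 0.235 to 2.01 (median 1.77) CPM with semaglutide (log2 fold change -1.06 ± 0.31 (SE), adjusted p = 0.272). Ube2c, the ubiquitin-conjugating enzyme of the same complex, rose by 2.16 ± 0.41 (adjusted p = 1.64e-05) with the diet and fell under the combination (-1.79 ± 0.39) and with the high dose of zalfermin (-1.27 ± 0.38). With the high dose of semaglutide it stood at the threshold (-1.27 ± 0.37, adjusted p = 0.0499). It shares 592 exon bases with Tnnc2 on the other strand.

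All 8 spindle, kinetochore and cytokinesis genes rose with the diet. Kif20a, a kinesin of the central spindle, had the smallest p of all members in that comparison, at 0.154 to 0.602 (median 0.334) CPM in chow and 2.54 to 4.67 (median 3.22) CPM in DIO-MASH vehicle livers (log2 fold change 3.09 ± 0.33 (SE), adjusted p = 2.97e-11). It fell to 0.386 to 2.11 (median 1.12) CPM under the combination (log2 fold change -1.43 ± 0.28 (SE), adjusted p = 0.000133) and 0.968 to 1.98 (median 1.28) CPM under high-dose zalfermin (log2 fold change -1.34 ± 0.28 (SE), adjusted p = 0.000377). High-dose semaglutide livers were at 0.797 to 2.18 (median 1.64) CPM (log2 fold change -1.11 ± 0.27 (SE), adjusted p = 0.0179), and none of the 3 groups overlapped with the vehicle group. Low-dose semaglutide livers, at 0.352 to 2.29 (median 1.95) CPM, also lay wholly below the vehicle group, the 1 such member at a low dose, although the test was not passed (log2 fold change -0.93 ± 0.27 (SE), adjusted p = 0.271). Of all genes, 0.078% did not overlap with vehicle under low-dose semaglutide and 0.489% under low-dose zalfermin. Kif20a shares 1271 exon bases with Cdc23 on the other strand. The rises of Prc1 and Tpx2, which bundle and nucleate spindle microtubules, of the kinetochore proteins Cenpe and Cenpf and of Nusap1, a microtubule-binding protein, were 2.97 ± 0.36, 2.77 ± 0.39, 2.92 ± 0.45, 2.96 ± 0.47 and 2.44 ± 0.37.

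Of this role the combination lowered 7 and high-dose zalfermin 6. Kif11, the motor that separates spindle poles, rose by 2.08 ± 0.47 (adjusted p = 0.000222), fell under the combination (-1.54 ± 0.43, adjusted p = 0.00783) and high-dose semaglutide (-1.64 ± 0.43, adjusted p = 0.0267), and did not pass under high-dose zalfermin (-1.11 ± 0.42, adjusted p = 0.0609). Kif23, a kinesin of the cleavage midzone, rose least (1.26 ± 0.41, adjusted p = 0.00865) and was lowered by none of the 3 regimens (-0.39 ± 0.38, adjusted p = 0.490, -0.99 ± 0.40 (adjusted p = 0.0799) and -0.37 ± 0.38 (adjusted p = 0.636)). High-dose semaglutide lowered 6 of the 8, all but Cenpf and Kif23, whereas it lowered 0 of the 7 cyclins and Cdk1, for which the changes lay between -0.07 and -1.31. Calls in some roles and not in others do not show that the roles differed, and that difference was not tested.

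**Figure D4:**
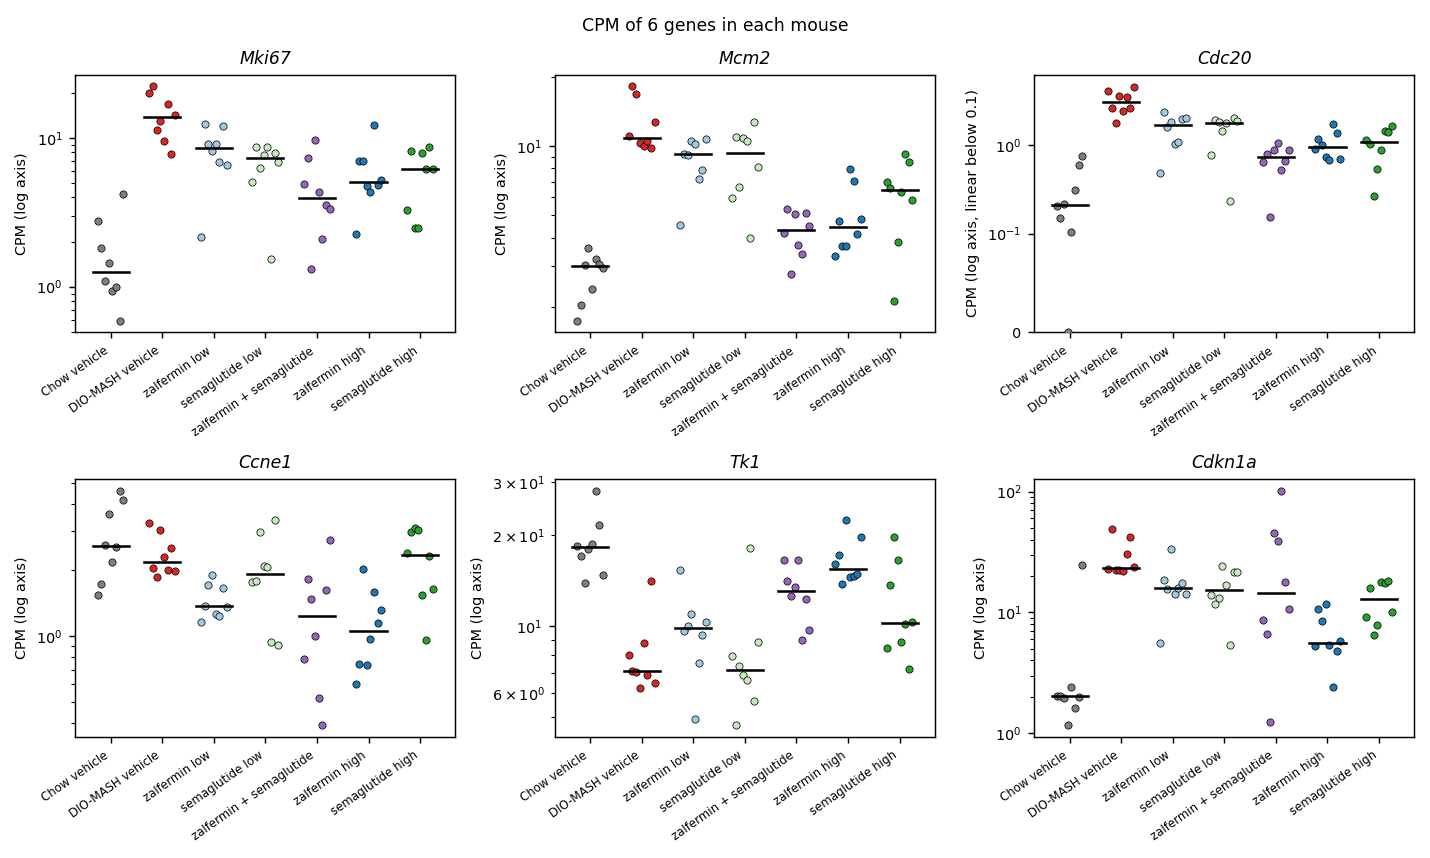
CPM of Mki67, Mcm2, Cdc20, Ccne1, Tk1 and Cdkn1a in each mouse by group (points, n = 8 a group), with a bar at the group median. Mki67, Mcm2 and Cdc20 are lowest in chow and highest in DIO-MASH vehicle livers, Tk1 is reversed, Ccne1 is lowest in zalfermin groups, and Cdkn1a spreads from 1.23 to 102 CPM in the combination group.

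**Figure D5:**
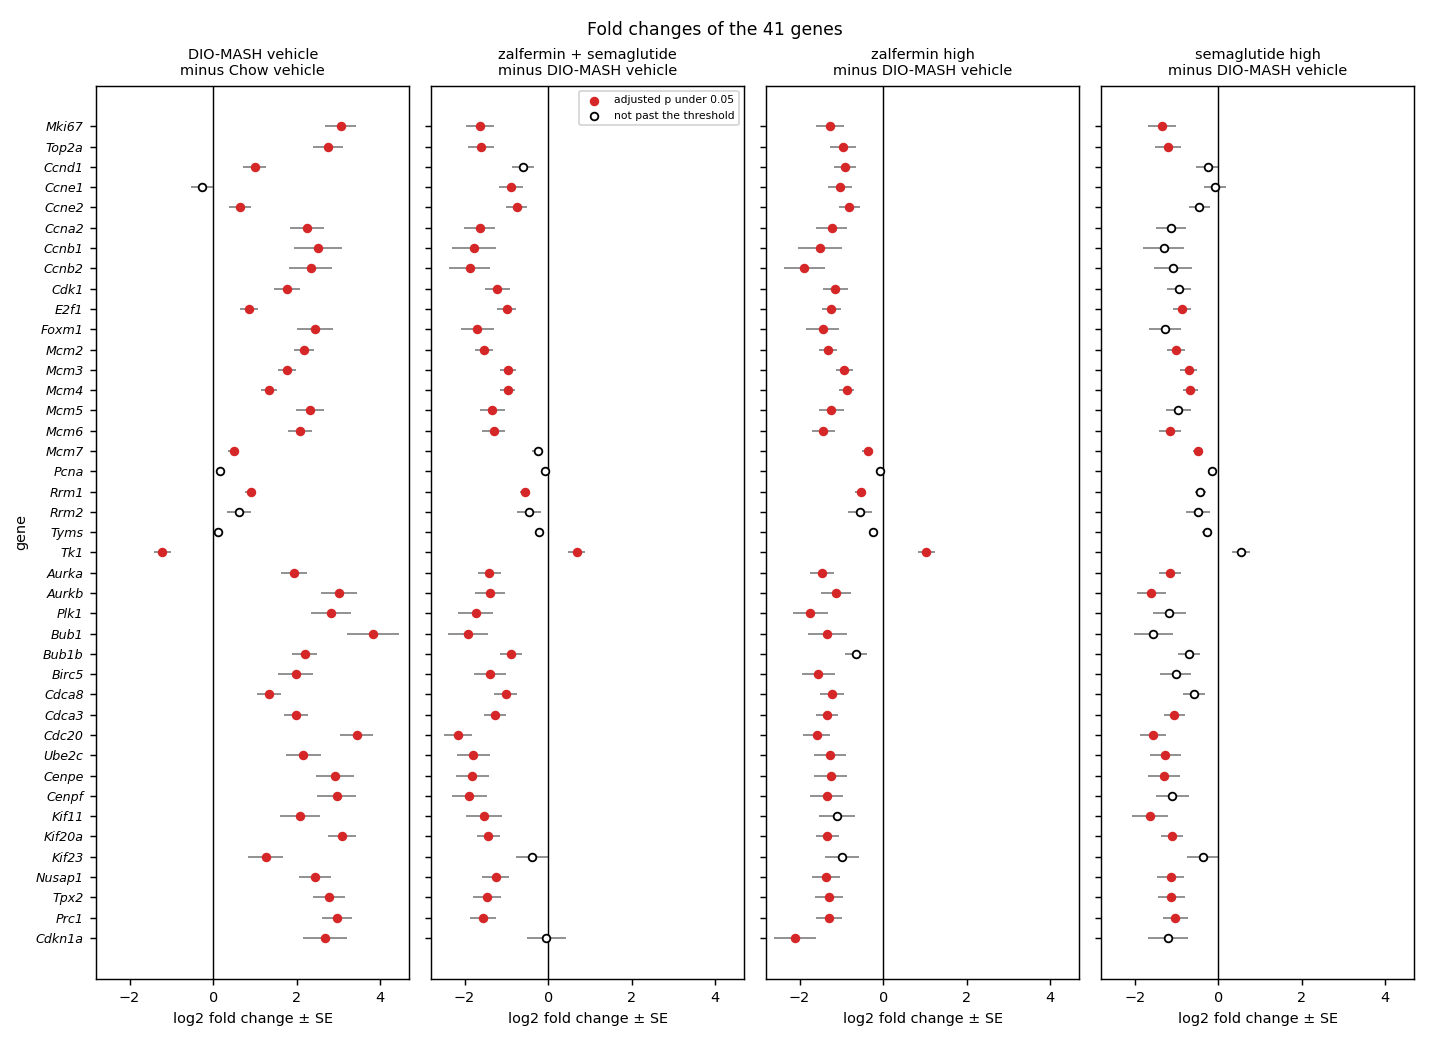
Log2 fold change with its standard error for each of the 41 members in 4 comparisons, DIO-MASH vehicle against chow, and the combination and the high doses of zalfermin and semaglutide against DIO-MASH vehicle, with filled points for an adjusted p under 0.05. Nearly all points lie above 0 in the first panel and below 0 in the others, with Tk1 on the opposite side in each.

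Cdkn1a (chr17:29090976-29100727), which encodes the CDK inhibitor p21 and is a classical p53 target, was raised by the diet, lowered by high-dose zalfermin and scattered under the combination. It ran at 1.17 to 24.6 (median 2.02) CPM in chow and 22.2 to 49.1 (median 23.3) CPM in DIO-MASH vehicle livers (log2 fold change 2.68 ± 0.53 (SE), adjusted p = 2.69e-05). Chow mouse 8 held the 24.6 CPM, and the other 7 chow mice were below the lowest DIO-MASH vehicle mouse. Under high-dose zalfermin Cdkn1a fell to 2.43 to 11.6 (median 5.61) CPM, without overlap (log2 fold change -2.11 ± 0.50 (SE), adjusted p = 0.00195). Under high-dose semaglutide all 8 mice, at 6.47 to 18.03 (median 12.9) CPM, were below the vehicle mice, and the test was not passed (log2 fold change -1.20 ± 0.48 (SE), adjusted p = 0.176).

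The 8 combination livers were at 8.72, 6.57, 1.23, 45.1, 38.8, 102, 18.03 and 10.7 CPM (mice 1 to 8), so that mice 4, 5 and 6 were at or above the middle of the vehicle range and 5 mice were below all of it. Their fitted difference from vehicle was -0.04 ± 0.46 (adjusted p = 0.960), with a 95% confidence interval -0.95 to 0.87. As a difference of mean log2 CPM over the same mice it was -0.88, which was not tested. Cdkn1a was higher under the combination than under high-dose zalfermin (log2 fold change 2.07 ± 0.51 (SE), adjusted p = 0.0406), the 1 member to differ between them, where 0.503% of all genes did. Without combination mouse 6 the difference was 1.44 (adjusted p = 0.196). It was the 1 member with an unadjusted p under 0.05 for the low-dose interaction, whose estimate was 1.63 ± 0.67 (adjusted p = 0.628). Low-dose zalfermin livers were at 5.63 to 33.3 (median 15.8) CPM and low-dose semaglutide livers at 5.40 to 24.2 (median 15.5) CPM.

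Comparisons between regimens asked what each drug added and whether dose mattered. Adding semaglutide to low-dose zalfermin lowered 3 members (7.32% of the members), where 6.62% of all genes were called in either direction and 3.35% were lower. They were Mcm2 (-1.01 ± 0.22, adjusted p = 0.00219), Mcm4 (-0.62 ± 0.19, adjusted p = 0.0293) and Cdc20 (-1.15 ± 0.35, adjusted p = 0.0331). The count was 11, all lower, without low-dose zalfermin mouse 1, and 1 without its mouse 2. Adding zalfermin to low-dose semaglutide lowered Mcm2 (-1.03 ± 0.22, adjusted p = 0.00257) and raised Tk1 (0.68 ± 0.21, adjusted p = 0.0464), which is 4.88% of the members, with 4.21% of all genes called. The counts of called members in these 2 comparisons are near the shares of all genes and are no result about the members as a set. At an unadjusted p under 0.05 were 21 members (21.2% of all genes) for added semaglutide and 19 (17.6%) for added zalfermin. Fitted changes were below 0 in 38 and 37 of the 41. Their medians were -0.69 and -0.59, against -0.02 over all genes in both, and the members as a set were not tested. The rise of Tk1 did not pass with plain library sizes, without the filter or in a fit of these groups alone (adjusted p = 0.0599, 0.0581 and 0.118). The count of called members for added zalfermin was 8 without low-dose semaglutide mouse 6, with 7 lower.

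High-dose against low-dose zalfermin lowered E2f1 (-0.88 ± 0.23, adjusted p = 0.0292) and Mcm2 (-0.81 ± 0.22, adjusted p = 0.0356) and raised Tk1 (0.76 ± 0.20, adjusted p = 0.0353), with 1.84% of all genes called, and leaving out single mice gave 0 to 5. In that comparison 17 members and 13.5% of all genes were at an unadjusted p under 0.05. High-dose against low-dose semaglutide changed 0 members (0.0% of all genes called), with 6 members and 3.89% of all genes at an unadjusted p under 0.05. The combination against high-dose semaglutide changed 0 (1.89% of all genes called), with 3 members and 14.4% of all genes at an unadjusted p under 0.05, and high-dose zalfermin against high-dose semaglutide changed 0 (0.447%), with 4 members and 9.65%. The low-dose interaction, which asks whether the combination departs from the sum of the low doses on the log2 scale, passed for 0 members (0.0142% of all genes), with 1 member and 6.75% of all genes at an unadjusted p under 0.05. DESeq2 called 0 members in each of these 4 comparisons as well. These results do not show that the regimens acted alike. For Mki67, high-dose zalfermin minus high-dose semaglutide had a 95% confidence interval -0.58 to 0.74.

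The treated livers were also set against chow to ask how far the members returned. Members higher than chow numbered 35 under low-dose zalfermin (25.1% of all genes were higher), 35 under low-dose semaglutide (24.4%), 27 under high-dose semaglutide (21.3%), 16 under high-dose zalfermin (19.7%) and 16 under the combination (17.4%). The 16 under the combination were Mki67, Top2a, Mcm2, Mcm3, Mcm5, Mcm6, Rrm1, Aurkb, Bub1, Bub1b, Cdc20, Kif20a, Nusap1, Tpx2, Prc1 and Cdkn1a. No cyclin, Cdk1, E2f1 or Foxm1 was above chow under the combination or high-dose zalfermin, although intervals were wide, as for Ccnb1 under the combination (95% confidence interval -0.54 to 1.997). Members below chow were Ccne1 in the 3 zalfermin groups and Tk1 in 4 groups, all but high-dose zalfermin. Chow mouse 8 held the highest chow value in 20 of 41 members, and without it 22 members were above chow under the combination, 24 under high-dose zalfermin and 32 under high-dose semaglutide.

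Other cell cycle genes were taken from 5 lists chosen by role, and their counts stand beside the shares of all genes given above (with the diet 28.9% higher and 26.5% lower, and 10.9%, 8.68% and 1.0% lower under the combination and the high doses of zalfermin and semaglutide). Of 46 G2 and M phase genes outside the members, 39 were higher and 1 lower in DIO-MASH vehicle than in chow livers, with a median log2 fold change of 2.05, and the combination lowered 29, high-dose zalfermin 29 and high-dose semaglutide 7. Ncapg2, a condensin subunit, rose by 2.48 ± 0.30 (adjusted p = 7.88e-10) and the cytokinesis scaffold Anln by 2.51 ± 0.42 (adjusted p = 1.40e-06), whereas Pttg1 (securin) fell by 0.52 ± 0.12 (adjusted p = 0.000199) on the log2 scale. Racgap1 and Knstrn, of the cleavage furrow and the kinetochore, changed by -1.44 ± 0.31 (adjusted p = 0.000486) and -1.34 ± 0.34 (adjusted p = 0.00338) under the combination. Of 40 G1 and S phase regulators, 20 were higher and 3 lower with the diet (median 0.50), and the combination lowered 19, high-dose zalfermin 17 and high-dose semaglutide 4. Uhrf1, which carries DNA methylation through replication, rose by 3.94 ± 0.44 (adjusted p = 1.78e-10) and the helicase Hells by 3.40 ± 0.46 (adjusted p = 1.86e-08). They changed under the combination by -1.86 ± 0.36 (adjusted p = 0.000120) and -1.64 ± 0.39 (adjusted p = 0.00158). Mcm10, a replication initiation factor at a mean of 51.2 CPM, was lower in DIO-MASH vehicle livers (-1.15 ± 0.26, adjusted p = 0.000170), and so was Rfc5 (-0.36 ± 0.11, adjusted p = 0.00558), a subunit of the clamp loader, which shares 499 exon bases with Wsb2 on the other strand. The 4 that high-dose semaglutide lowered were Hells (-1.64 ± 0.38, adjusted p = 0.0141), Fen1, Dtl and Clspn.

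Of 18 RB, E2F and DREAM complex genes, 5 were higher and 4 lower with the diet (median 0.02), which is near the shares of all genes and is no result about this list. The 5 were Rbl1, which encodes the pocket protein p107 (by 2.48 ± 0.29, adjusted p = 6.61e-10), E2f2 (by 1.64 ± 0.30, adjusted p = 1.04e-05), E2f7, Tfdp1 and Mybl2, the gene of B-MYB. The 4 were Tfdp2, an E2F partner (-1.04 ± 0.14, adjusted p = 1.60e-08), Lin37 (-0.51 ± 0.15, adjusted p = 0.00480), Rbl2 and E2f5. High-dose zalfermin lowered 5 of the 18 (Rbl1, E2f2, E2f3, E2f7 and Tfdp1) and raised 2, Rbl2 (p130, by 0.49 ± 0.11, adjusted p = 0.00128) and Tfdp2 (by 0.42 ± 0.14, adjusted p = 0.0285). The combination lowered Rbl1 alone (-0.77 ± 0.26, adjusted p = 0.0242) and high-dose semaglutide lowered none. Of 7 CDK inhibitor genes other than Cdkn1a, Cdkn2c (1.29 ± 0.24, adjusted p = 1.13e-05) and Cdkn3 were higher with the diet and Cdkn1c was lower (-0.55 ± 0.19, adjusted p = 0.0125), counts again near those shares. The combination and both high doses each lowered Cdkn3, and no other gene of that list. Of 27 p53 targets other than Cdkn1a, 13 were higher and 2 lower with the diet (median 0.49). Ckap2 is in both this list and that of the G2 and M phase genes, so those lists are not fully separate. Among these targets Eda2r and Phlda3 rose by 2.86 ± 0.43 (adjusted p = 2.20e-07) and 2.64 ± 0.29 (adjusted p = 6.43e-11). The 2 lower were Tigar (-0.55 ± 0.19, adjusted p = 0.0108) and Ercc5 (-0.42 ± 0.12, adjusted p = 0.00288). The combination lowered 6 of the 27 and raised 1, Ercc5 (0.32 ± 0.12, adjusted p = 0.0487), while high-dose zalfermin lowered 8 and high-dose semaglutide 0. Genes of these lists named without values lie outside the rule for named genes and were named after their values were seen. The low doses changed none of the genes in the 5 lists.

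Markers of several cell types moved with the groups, and their part in the values of the members was not tested. With the diet 28.9% of all genes were higher and 26.5% lower. Against vehicle, 10% were higher and 10.9% lower under the combination, 8.54% and 8.68% under high-dose zalfermin, and 1.43% and 1.0% under high-dose semaglutide. Summed over 10 hepatocyte markers, chow livers ran from 147100 to 237600 CPM and DIO-MASH vehicle livers from 59490 to 81520, with 9 of the 10 markers lower. Against the vehicle group, 7 of the 10 were higher under the combination, 9 under high-dose zalfermin and 2 under high-dose semaglutide. Of 7 Kupffer cell markers, 3 were higher under the combination, 1 under high-dose zalfermin and 0 under high-dose semaglutide, the last 2 counts being near the shares of all genes. Summed over 9 hepatic stellate cell markers, the ranges were 181 to 308 CPM in chow and 1060 to 1818 in DIO-MASH vehicle livers. They were 418 to 834 under the combination, 343 to 767 under high-dose zalfermin and 450 to 1791 under high-dose semaglutide, with 7 of 9 markers higher with the diet and 7, 3 and 2 lower under those regimens. Sums over 11 monocyte-derived macrophage markers were 88.7 to 251 CPM in chow and 671 to 1175 in DIO-MASH vehicle livers. They were 200 to 771 under the combination, 252 to 694 under high-dose zalfermin and 227 to 1079 under high-dose semaglutide, with 10 of 11 higher with the diet and 5, 5 and 0 lower. Ductular cell markers summed to 42.5 to 304 CPM in chow and 206 to 608 in DIO-MASH vehicle livers, with 4 of 7 higher and a median log2 fold change of 0.53. Spp1 is in both the ductular and the macrophage list, so these sums are not separate measures. T cell markers ran at 0.870 to 12.8 CPM and 3.70 to 26.1 CPM, with 8 of 8 higher, and B cell and plasma cell markers at 4.14 to 320 and 4.96 to 181, with 5 of 7 higher. High-dose semaglutide lowered 5 of the 7 B cell and plasma cell markers. No marker of these lists was at 0 reads in every mouse of a group, whereas 1 neutrophil marker was in the DIO-MASH vehicle, low-dose zalfermin and high-dose semaglutide groups. With the diet, 1 of 7 Kupffer cell markers was higher and 3 were lower, 3 of 5 NK cell markers were higher and 1 lower, 4 of 8 sinusoidal endothelial cell markers were higher and 1 lower, and 3 of 7 neutrophil and 2 of 8 red blood cell markers were lower. These counts, of 5 to 8 markers each, are not far from the shares of all genes and are no result about those cells.

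Several mice stood apart in these genes. In the mean log2 CPM of the 41, chow mouse 8 was at 1.38 and the other chow mice at 0.243 to 0.559. Low-dose zalfermin mouse 1 was at 0.736 against 1.65 to 2.15, and low-dose semaglutide mouse 6 at 0.561 against 1.43 to 2.02, each with the lowest value of its group in 33 members. In the same 2 mice the stellate cell markers summed to 537 and 317 CPM, the lowest of their groups, and the hepatocyte markers to 107500 and 114800, the highest. Chow mouse 8 had the highest B cell and plasma cell sum of its group (320 CPM) and the highest ductular sum (304). Combination mouse 3 was at 0.260 with the lowest value in 22 members, and high-dose semaglutide mice 3 and 7 were at 0.678 and 1.98, with stellate sums of 450 and 1791 CPM, the lowest and the highest of that group. The study left out 1 low-dose semaglutide mouse that the table does not mark, and all 56 mice are used here.

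The mouse numbers of the labels were split here into 4 runs at chosen gaps, and smaller gaps remain within runs. The labels state neither the runs nor a meaning for them. Within the 3 runs that hold several groups, the median difference of log2 CPM over the members between DIO-MASH vehicle and chow was 2.36, 1.51 and 1.85. It was -1.49, -1.31 and -1.10 for the combination, -1.41, -1.01 and -0.96 for high-dose zalfermin and -1.58, -0.80 and -0.38 for high-dose semaglutide, each against vehicle. The last run held only 3 mice, chow mice 7 and 8 and vehicle mouse 8. For Cdkn1a the combination differed from vehicle by -2.10, 1.49 and -1.35 within the runs, so its direction was not the same in each.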

How the data were processed

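Liver RNA from 56 mice was sequenced as stranded mRNA libraries. The authors deposited 1 table of raw read counts for 21935 genes, without normalization. The study's methods name STAR and GRCm38 with Ensembl genes, the submitters' processing notes name Trim Galore 0.6.4 and Salmon 1.9.0, and the counting program and its use of strand are not given in the sources used here. Groups were taken from the treatment label, and each library is a separate mouse, numbered in label order within its group. No 2 libraries of a group agreed within sampling noise. Precision is set by depth (5228187 to 20885786 reads) and by a biological coefficient of variation of 22.6%.

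A gene entered the tests if at least 3 mice had at least 5 reads (14105 genes). Counts were fitted with edgeR 4.0.16 in R 4.3.3, with TMM normalization and 1 quasi-likelihood model of all 7 groups. Two-sided quasi-likelihood F tests gave 18 pairwise comparisons and the low-dose interaction (on the log2 scale, the effect of the combination less the sum of the effects of its 2 low doses). Adjusted p-values are Benjamini-Hochberg values over all 14105 genes, with a threshold of 0.05. Fold changes are log2 and are given with the standard error of the fit, and CPM values use TMM library sizes. Log2 CPM used a prior count of 2. The script was tested on simulated data.

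The 41 members, the gene lists, the tests and the rule for named genes were chosen with earlier results of these data known. The rule gave every member a mention, gave the range in CPM for 14 members of different roles and for the 3 members with the smallest p in each comparison with DIO-MASH vehicle, and named from each other list of cell cycle genes those with the largest rises and falls among called genes with a mean of at least 1 CPM. Tk1 was added after its values were seen. Promoter windows came from RefSeq (GRCm38.p6). For 30 of 33 members the end of the window lay in a transcript of the gene. Gene positions and shared exon bases came from the GENCODE annotation of GRCm38. Besides the overlaps named above, genes on the other strand share 17.42% of the exon bases of Ccne2 (Ints8), 12.49% of Ccna2 (Exosc9) and 11.08% of Prc1 (Rccd1). Other members have smaller overlaps that are not listed, and the part of shared bases in the values was not tested. Alternatives were DESeq2 1.42.0 (Wald test), DESeq2's size factors, plain library sizes, no filter beyond 1 read, a stricter filter of at least 10 reads in at least 8 mice, the run of mouse numbers as a covariate, a fit of the 2 groups compared alone, each mouse omitted in turn, and a shorter promoter window. Leaving out 3 mice together was added after the data were seen. Fold changes and p-values computed by others were not used. The values of 1 listed gene are not reported here.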

Additional observations from a re-analysis of the deposited data

Results flagged for a closer look

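In 44 of 294 groups of 8 values, the highest or the lowest mouse stood far from the other 7 by a gap test that chance alone trips in about 5% of groups. Most of them belong to 3 mice, and the values of 1 mouse over many members are not independent.

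Low-dose zalfermin mouse 1 was the low one in 12. It was at 0.736 in the mean log2 CPM of the members, and its CPM was 2.17 for Mki67, 0.747 for Ccna2, 0.0679 for Ccnb2, 4.55 for Mcm2, 4.82 for Mcm3, 4.21 for Mcm4, 5.29 for Mcm6, 0.204 for Plk1, 0 for Bub1, 0.475 for Ube2c and 0.204 for Tpx2. Low-dose semaglutide mouse 6 was the low one in 11. It was at 0.561 in the mean log2 CPM, and its CPM was 1.52 for Mki67, 37.1 for Ccnd1, 0.117 for Ccnb2, 0.469 for Cdk1, 0.117 for Foxm1, 0.352 for Aurkb, 0.235 for Birc5, 0.587 for Cenpe, 0.469 for Cenpf and 0.352 for Kif20a. The same mouse was the high one for Tk1, at 18.2 CPM. Chow mouse 8 was the high one in 4, at 1.38 in the mean log2 CPM and at 3.32 CPM for Ccna2, 2.22 for Cdca8 and 24.6 for Cdkn1a.

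In the remaining cases, DIO-MASH vehicle mouse 2 was high for Mcm5 (28.6 CPM), Mcm6 (47.7 CPM) and Pcna (29.7 CPM), and vehicle mouse 7 for Rrm2 (21.2 CPM) and Tk1 (14.1 CPM). Combination mouse 3 was low for Ccna2 (0.0771 CPM), Cdc20 (0.154 CPM) and Kif23 (0.386 CPM), combination mouse 6 was low for Cdk1 (0.391 CPM), and combination mouse 4 was high for E2f1 (5.58 CPM). High-dose zalfermin mouse 1 was low for Ccne2 (0.151 CPM) and Bub1b (0.452 CPM), its mouse 5 was high for Mcm7 (15.1 CPM) and its mouse 4 for Rrm2 (16.8 CPM). High-dose semaglutide mouse 3 was low for Aurka (0.266 CPM), and chow mouse 4 for Mcm5 (1.17 CPM).

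A test of the difference between 2 dosed groups passed in 9 cases. On the log2 scale the combination minus low-dose zalfermin gave -1.01 for Mcm2, -0.62 for Mcm4 and -1.15 for Cdc20. The combination minus low-dose semaglutide gave -1.03 for Mcm2 and 0.68 for Tk1, and the combination minus high-dose zalfermin gave 2.07 for Cdkn1a. High-dose minus low-dose zalfermin gave -0.88 for E2f1, -0.81 for Mcm2 and 0.76 for Tk1.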

How the results depend on the processing

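None of the 270 calls of a member in a comparison changed sign under the alternatives run. Changes of members that were not called, and of genes outside the members, were not followed across them. The counts for DIO-MASH vehicle against chow, and for the combination and the high doses of both drugs against vehicle, stayed within a factor of 1.5 of those given under DESeq2, other size factors, either filter, the run covariate and the fit of only the groups compared. Members called in the combination against low-dose zalfermin (3) numbered 8 with DESeq2's Wald test and 9 with plain library sizes. In the combination against low-dose semaglutide (2) they numbered 4 with DESeq2, 7 with plain library sizes, 1 with no filter and 1 with only the groups compared. The rise of Tk1 in that comparison was lost in all but the first of these 4. Its rise under the combination against vehicle was lost with plain library sizes (adjusted p = 0.0684), and so was the difference of Ccne1 between low-dose zalfermin and chow (adjusted p = 0.0579). Cdkn1a in the combination against high-dose zalfermin (1) was lost, giving 0, with plain library sizes, with no filter and with only the groups compared. With only the groups compared, low-dose zalfermin against vehicle gave 1, high-dose against low-dose zalfermin 5 and the combination against chow 10, and with plain library sizes high-dose zalfermin against chow gave 27. Under plain library sizes the median log2 fold change of all genes was 0.47 for the diet (0.01 with TMM), -0.25 for the combination (-0.03), -0.21 for zalfermin at its high dose (-0.02) and -0.13 for semaglutide at its high dose (-0.01). Without the 3 mice that stand apart (chow 8, low-dose zalfermin 1 and low-dose semaglutide 6), an alternative chosen after seeing the data, the combination differed from low-dose zalfermin in 18 members and from low-dose semaglutide in 10, the zalfermin doses differed in 11, and high-dose zalfermin differed from chow in 27.

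Leaving out each mouse in turn gave 36 to 38 called members for the diet, 33 to 35 for the combination and 32 to 37 for high-dose zalfermin. High-dose semaglutide gave 3 (without its mouse 3) to 28 (without its mouse 7), low-dose zalfermin 0 to 1 and low-dose semaglutide 0. Against low-dose zalfermin the combination gave 1 to 11, against low-dose semaglutide 1 to 8, against high-dose zalfermin 0 to 1 and against high-dose semaglutide 0 to 1, and the zalfermin doses gave 0 to 5. Against chow the ranges were 32 to 38 for low-dose zalfermin, 30 to 36 for low-dose semaglutide, 11 (without combination mouse 4) to 24 for the combination, 15 to 25 for high-dose zalfermin and 22 to 33 for high-dose semaglutide. Called in every such fit were 36 of 37 members for the diet, 33 of 34 for the combination, 30 of 35 for high-dose zalfermin and 3 of 19 for high-dose semaglutide. The cause of these shifts was not tested. Depth limits the low members most, as 1 read is 0.0476 to 0.217 CPM.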
